A study of Mus musculus with 3 samples.

Results

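The genes described here are 38 genes of fatty acid oxidation and the peroxisome measured in NIH3T3, a mouse fibroblast line that grows indefinitely in culture. They comprise the enzymes and carriers of mitochondrial and peroxisomal oxidation, the peroxins that build peroxisomes, the PPAR receptors and a pair of PPAR target genes. A probe set was taken when the platform annotation gave it exactly 1 gene symbol and that symbol was among the 38, which did not use the measured values. All 38 genes were found, on 72 of the 34945 probe sets with 1 symbol, among 18193 genes in all. The study compared cells carrying an shRNA against retinol saturase (RetSat), described as highly resistant to the organic peroxide t-BHP, with cells carrying the empty vector, within an RNAi screen for resistance to oxidative stress. Both empty-vector arrays (1 and 2) came from cells grown in DMEM with calf serum, given no treatment and labelled as basal expression. The single RetSat shRNA array carries the number 2 in its title, and its growth conditions, and whether the lines were clones or pools, were not stated in the labels.

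Fatty acids enter the mitochondrial matrix through the carnitine shuttle, in which Cpt1a makes acylcarnitine, Slc25a20 carries it across the inner membrane and Cpt2 returns it to CoA. Each round of beta-oxidation then shortens the chain through a dehydrogenase, a hydratase, a second dehydrogenase and a thiolase, and passes electrons to the respiratory chain through the electron transfer flavoprotein. Peroxisomes oxidise very long and branched chains in a parallel pathway whose first step makes hydrogen peroxide, and their enzymes are imported by the peroxin Pex5, or by Pex7 for a small group. PPARs are fatty acid sensing nuclear receptors that bind DNA with RXR at paired AGGTCA half-sites and activate many of these genes.

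Promoters are printed for the members that lay at least 1.2-fold from both controls in the results. They are Cpt1a and Pex3, which were lower, and Acaa1a, Hadhb and Pex11a, which were higher, while Pex19 is not shown. Each is the 250 bases before 1 start listed for the gene in RefSeq's GRCm38.p6 promoter table, 5′ to 3′ on the gene's strand. A gene can have other starts, and the windows of Cpt1a and Acaa1a lie within the annotated span of the gene. Capitals mark AGGTCA or its reverse complement TGACCT, and GGGCGG, a GC box, or its reverse complement CCGCCC. The windows lie at chr19:3323051-3323300 (plus strand, Cpt1a), chr10:13553143-13553392 (minus strand, Pex3), chr9:119341044-119341293 (plus strand, Acaa1a), chr5:30155003-30155252 (plus strand, Hadhb) and chr7:79743132-79743381 (minus strand, Pex11a).
Cpt1a: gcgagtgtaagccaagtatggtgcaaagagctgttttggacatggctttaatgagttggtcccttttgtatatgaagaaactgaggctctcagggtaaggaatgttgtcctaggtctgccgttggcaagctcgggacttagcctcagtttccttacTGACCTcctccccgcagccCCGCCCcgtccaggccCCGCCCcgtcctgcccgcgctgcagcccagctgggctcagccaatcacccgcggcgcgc
Pex3: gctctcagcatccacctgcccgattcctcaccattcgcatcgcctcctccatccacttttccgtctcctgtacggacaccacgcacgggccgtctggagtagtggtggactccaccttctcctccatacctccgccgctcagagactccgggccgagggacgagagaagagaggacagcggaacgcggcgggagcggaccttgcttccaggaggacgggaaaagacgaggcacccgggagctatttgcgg
Acaa1a: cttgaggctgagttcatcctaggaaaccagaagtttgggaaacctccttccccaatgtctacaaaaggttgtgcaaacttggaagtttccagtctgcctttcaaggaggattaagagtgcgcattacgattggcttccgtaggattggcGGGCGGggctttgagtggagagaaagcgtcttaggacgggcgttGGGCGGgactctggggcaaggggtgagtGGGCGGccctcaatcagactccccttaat
Hadhb: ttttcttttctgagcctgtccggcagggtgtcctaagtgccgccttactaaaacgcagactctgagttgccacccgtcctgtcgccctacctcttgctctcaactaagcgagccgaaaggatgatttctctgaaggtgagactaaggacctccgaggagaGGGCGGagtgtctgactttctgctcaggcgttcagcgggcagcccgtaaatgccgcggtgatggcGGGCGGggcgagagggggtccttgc
Pex11a: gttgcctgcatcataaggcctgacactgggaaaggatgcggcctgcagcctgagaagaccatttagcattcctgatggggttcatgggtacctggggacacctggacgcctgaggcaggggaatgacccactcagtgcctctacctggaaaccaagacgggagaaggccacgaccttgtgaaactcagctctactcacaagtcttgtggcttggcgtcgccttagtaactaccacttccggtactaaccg

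Of the 5 windows, that of Cpt1a held an AGGTCA half-site, which begins 94 bases before the listed start, and the others held none. GGGCGG was found 3 times before Acaa1a, 2 times each before Cpt1a and Hadhb and 0 times before Pex3 and Pex11a. Of the 38 genes, 32 matched the promoter table by symbol, and 6 of these (18.8%) held AGGTCA on either strand before at least 1 listed start, against 15.8% of all 27025 genes in the table. They were Cpt1a, Acadm, Acadvl, Plin2, Pparg and Scp2. A pair of AGGNCA half-sites with 1 base between, on either strand, was found in 0 of the 32 genes and in 0.400% of all genes. GGGCGG on either strand was found in 62.5% of the 32 genes and 35.4% of all genes, and the median GC content was 58.8% in the windows of these 32 genes and 52.4% in all windows. Hadha and Hadhb lie head to head on chromosome 5, with start sites 273 bases apart, so the Hadhb window covers most of the stretch between them. These matches describe the letters in the windows.

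Values are deposited signals on a linear scale, and each gene is represented by its brightest probe set unless said otherwise. An offset of 10.2 was added before taking log2, so folds used as thresholds are on that scale. Retsat, the targeted gene, had a control mean of 456 ± 56.6 (SD, n = 2) and a signal of 69.5 on the RetSat shRNA array, 15.2% of that mean. The control arrays were far from equal. Over the 10843 genes whose mean log2 signal reached the median of all probe sets, empty vector 1 differed from empty vector 2 with an SD of 0.739 on the log2 scale, and RetSat shRNA differed from empty vector 2 with an SD of 0.336. The median gene lay 0.14 above empty vector 1 on the RetSat shRNA array, and at the level of empty vector 2. Whether the control arrays stand for separate cultures was not stated, so any p-value reflects only how far these arrays differed, possibly for technical reasons. In bulk RNA, fewer cells expressing a gene and less RNA per cell cannot be told apart.

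The oxidation and peroxisome genes stood apart from both controls on the RetSat shRNA array about as often as other genes did. Of the 38, 35 passed the filter on signal, and the dim ones were Ehhadh, Ppara and Pparg. RetSat shRNA lay above both empty-vector arrays for 12 of the 35 and below both for 9, against 34.4% and 25.4% of all genes tested, and between them for 14. The median log2 difference from the mean of the control arrays was 0.09, against 0.07 for all genes, and it was 0.06 against empty vector 1 but 0.03 against empty vector 2. No member passed limma, whose smallest unadjusted p among them was 0.135 for Pex3 (adjusted p = 0.9999, Benjamini-Hochberg over all genes). At an adjusted p of 0.05 limma called 0% of all genes, 0 of 10843, with 108 of them and 0 of the 35 members at an unadjusted p under 0.05. With 1 residual degree of freedom for each gene, its SE ran from 0.50 to 0.73 over the members, and an exact permutation of 1 array against 2 cannot go below a one-sided p of 0.333.

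**Figure D1:**
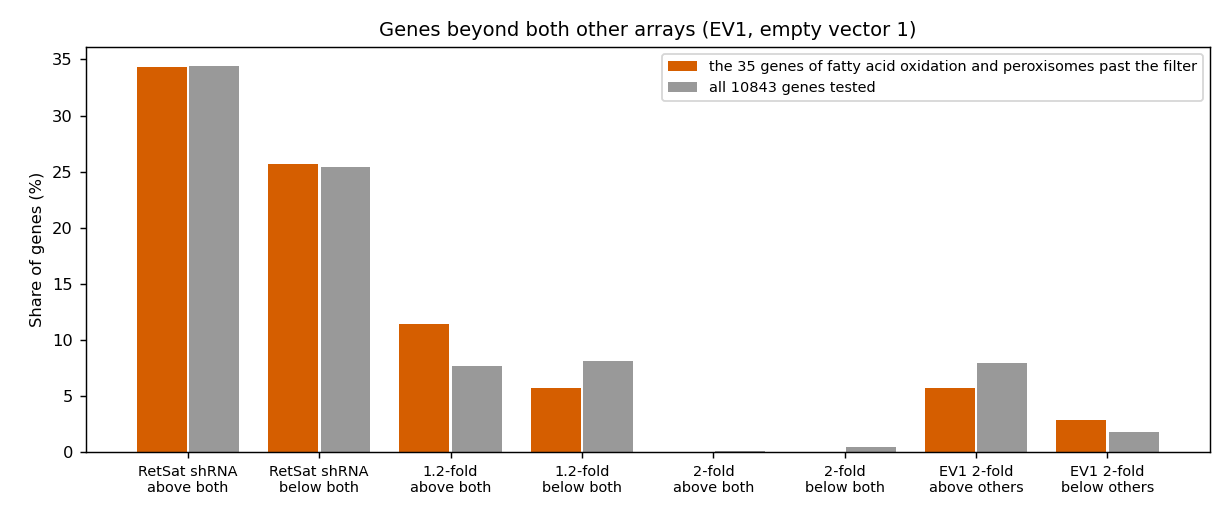
Bars give the share in percent of the 35 members past the filter and of all 10843 genes tested that lay beyond both other arrays, for RetSat shRNA by any amount, at least 1.2-fold or at least 2-fold, and for empty vector 1 (EV1) at least 2-fold. RetSat shRNA lay above both controls for 34.3% of members and 34.4% of all genes, and no member was 2-fold from both controls.

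By size, 0 members lay at least 2-fold above or below both control arrays, against 0.0922% and 0.498% of all genes. At 1.2-fold, 4 members lay above both controls, namely Acaa1a, Hadhb, Pex11a and Pex19, against 7.7% of all genes, which is 11.4% of the members. Cpt1a and Pex3 lay at least 1.2-fold below both, 5.71% of the members against 8.12% of all genes. With 35 members, 1 gene alone makes 2.86% of them. Against empty vector 2 alone, the array closest to RetSat shRNA, 5 members were at least 1.2-fold higher (the same 4 and Hsd17b4) and the same 2 were lower, against 14.1% and 15.5% of all genes. Without empty vector 2, 14 members were higher and 10 lower than empty vector 1 by that rule, against 41.1% and 28.0% of all genes. When all probe sets of a gene were averaged, 2 of the 6 stayed beyond 1.2-fold, Acaa1a and Pex3. Decr1 then joined as higher and Etfdh as lower. Etfdh did so only through a dim probe set, under the filter level of 33.3 on every array. That probe set read 31.3 and 30.3 on empty vector 1 and 2 and 5.2 with the shRNA. The brightest Etfdh probe set lay between the controls. Quantile normalization ended the call of Hadhb.

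In the carnitine shuttle, Cpt1a stood apart from both controls by its brightest probe set. Cpt1a, the rate-limiting outer membrane transferase, read 1552 on empty vector 1, 1379 on empty vector 2 and 1116 on the RetSat shRNA array, the order used for every gene from here. The shRNA value was 76.2% of the control mean of 1465 ± 122 (SD, n = 2), a log2 difference of -0.39 (limma SE 0.50). Its dimmer probe sets went the other way. They read 182, 190 and 202, and 101, 136 and 157, so the RetSat shRNA array was the highest on both. Cpt2, the inner membrane partner, read 439, 458 and 414, and its dimmer probe set 47.5, 51.3 and 42.4, lowest with the shRNA on both. Slc25a20, the carnitine-acylcarnitine carrier, read 222, 402 and 435, so empty vector 1 stood alone and the other arrays were close. Crat, which moves short acyl groups to carnitine, read 197, 206 and 222, a narrow range with the shRNA highest. A second Crat probe set read 40.6, 19.2 and 98.6, and passed the filter only through the shRNA array.

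Of the 9 enzymes of mitochondrial beta-oxidation, 4 lay above both controls, 3 below both and 2 between. Of all genes tested, 34.4% lay above both and 25.4% below both. The acyl-CoA dehydrogenases for long chains were level across the arrays. Acadvl, for very long chains, read 1273, 1176 and 1199.7, and Acadl, for long chains, read 1677, 1729 and 1751. Acadm, for medium chains, read 1154 on empty vector 1 but 479 and 452 on the other arrays. Acads, for short chains, read 304, 498 and 528, the reverse order. Both of these genes thus separated empty vector 1 from a close pair formed by empty vector 2 and RetSat shRNA.

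The subunits of the trifunctional protein, which carries out the last steps for long chains, read in opposite directions by their brightest probe sets. Hadha, the hydratase and dehydrogenase subunit, read 1587, 1289 and 1076, or 74.9% of the control mean, with log2 differences of -0.56 and -0.26, the latter just short of 1.2-fold. Hadhb, the thiolase subunit, read 1439.9, 1635 and 1989, or 129% of the control mean. RetSat shRNA lay below both controls for Hadha and above both for Hadhb, as it did for 25.4% and 34.4% of all genes. The probe sets of Hadhb disagreed. Its next brightest read 1604, 1290.1 and 1327, close to empty vector 2, and its dimmest read 84.7, 81.6 and 62.5, lowest with the shRNA. The opposite readings of these neighbours, most of whose intervening stretch is printed above, therefore rest on 1 of 3 Hadhb probe sets.

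Decr1, the dienoyl-CoA reductase needed for unsaturated fatty acids, had the closest control values of all members. It read 933 and 930.1 on the control arrays, 931 ± 1.77 (SD, n = 2), and 1089 on the RetSat shRNA array, 117% of the control mean. Its dimmer probe set read 105, 113 and 150.1, or 138%. The shRNA array was the highest on both probe sets, although the brighter one fell short of 1.2-fold. Ech1, which also handles unsaturated chains, read 1231, 1099 and 1127. Acaa2, the matrix thiolase, read 932, 715 and 685 by its brightest probe set. A dimmer probe set read 564, 196 and 217, so the excess on empty vector 1 differed in size between probe sets of this gene.

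By their brightest probe sets, all 3 electron transfer genes lay between the control arrays on the RetSat shRNA array, as did 4358 of all 10843 genes. Etfdh, the oxidoreductase that hands electrons to ubiquinone, read 577 on empty vector 1 and 135 and 141 on the others, a 4.26-fold gap between controls and a 1.04-fold gap between RetSat shRNA and empty vector 2. Etfa, the alpha subunit of the flavoprotein, read 2039, 1144 and 1201. Etfb, the beta subunit, read 2299, 2660 and 2603, and so was lowest on the array where its partner was highest.

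**Figure D2:**
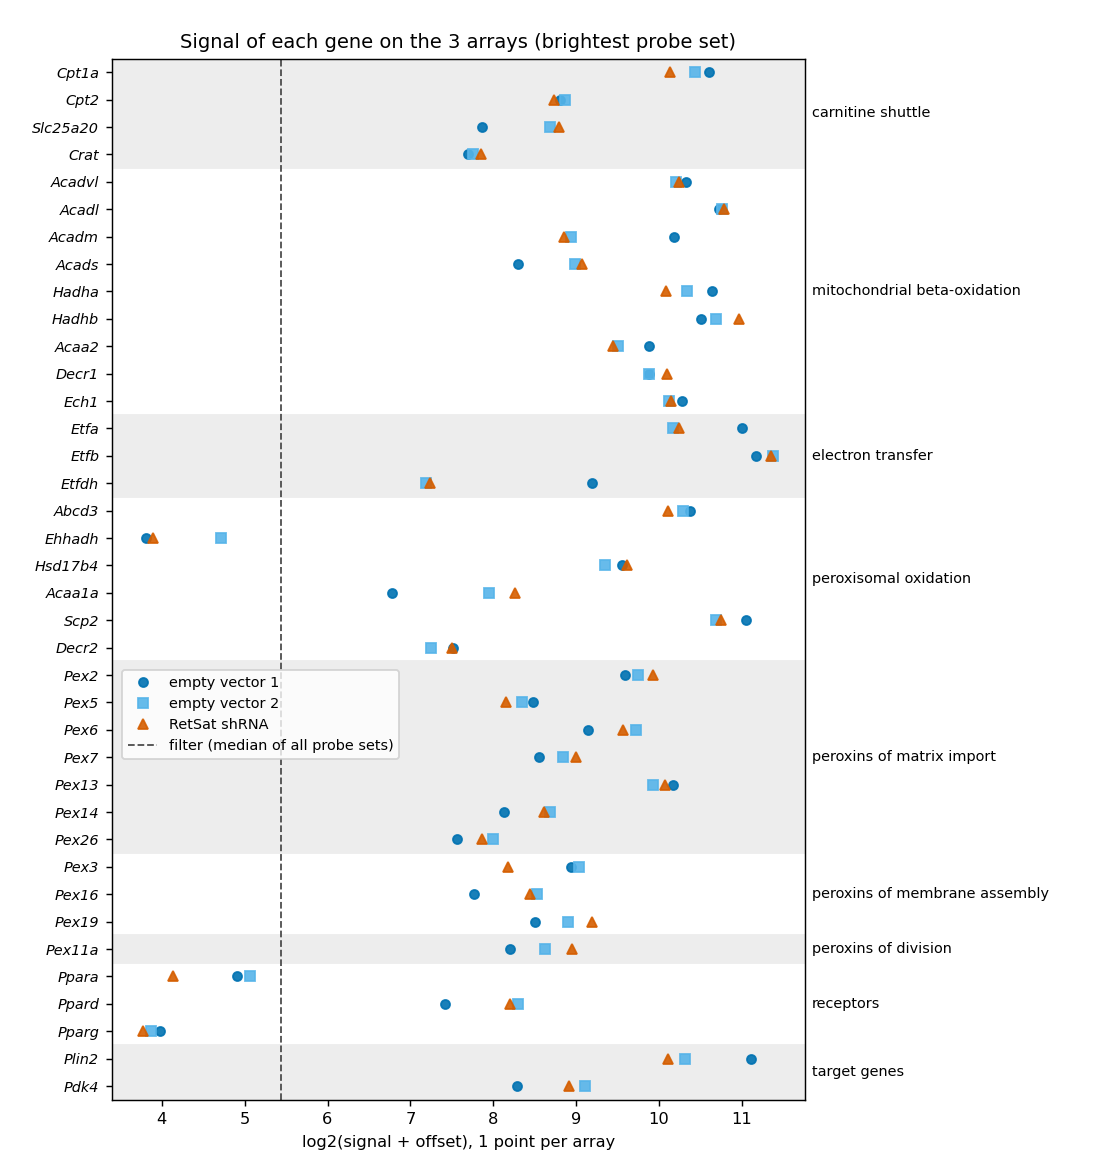
Each row is a gene and each point its log2(signal + offset) on 1 array, by the brightest probe set, with roles named at the right and the filter as a dashed line. Etfdh and Acadm stand far to the right on empty vector 1, Acaa1a to the left, and Ehhadh, Ppara and Pparg lie left of the filter on all 3 arrays.

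Among peroxisomal oxidation genes, Acaa1a had the largest difference from the controls, and they differed among themselves as much. Acaa1a, the peroxisomal thiolase, read 99.5, 237 and 297, which is 2.98 times empty vector 1 and 1.25 times empty vector 2. Its other probe set read 55.3, 95.1 and 116, in the same order. Acaa1b is a near-identical paralog, and signals of these probe sets may include it. Probe sets listed under both genes read 330.4, 447 and 481, and 585, 840.1 and 793, so the shRNA array was not the highest on the brighter of them. Abcd3, a transporter of fatty acids into peroxisomes, read 1316, 1239.9 and 1097, or 85.8% of the control mean. Hsd17b4, the D-specific multifunctional enzyme, read 744, 642 and 776, while its other probe set read 722, 632 and 607, above both controls on one and below both on the other.

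The remaining peroxisomal enzymes did not separate the shRNA array from the controls. Scp2, whose long form is the thiolase for branched chains, read 2116, 1638 and 1711. Decr2, the peroxisomal dienoyl-CoA reductase, read 173, 142 and 171. Ehhadh, the L-specific bifunctional enzyme and a classical PPARalpha target in liver, read 3.8, 16.0 and 4.6, under the filter level of 33.3, and no ratio is given.

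Peroxins, like all genes tested, varied more between the control arrays than between RetSat shRNA and empty vector 2. Of the 11 peroxins, 4 lay above both controls, 2 below both and 5 between, beside 34.4% above and 25.4% below for all genes. Their median log2 difference was 0.41 against empty vector 1 but -0.07 against empty vector 2, where all genes had 0.14 and 0. The difference between the controls themselves was 0.40, against 0.14 for all genes tested.

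Pex3, which anchors membrane protein import with Pex16 and Pex19, had the largest difference that held against both controls. It read 480 and 512 on the control arrays, 496 ± 23.0 (SD, n = 2), and 278 on the RetSat shRNA array, or 56.1% of the control mean. The controls were close and both stood clear of the shRNA array, with log2 differences of -0.76 and -0.86 and a limma SE of 0.50. The other Pex3 probe set read 266, 139 and 127, again lowest with the shRNA but by 0.12 on the log2 scale from empty vector 2. Pex19, the cytosolic chaperone for membrane proteins, read 352, 467 and 572, whereas its dimmer probe sets read 297, 214 and 219, and 34.3, 68.0 and 45.0. Pex16, the membrane receptor of this route, read 208, 359.6 and 339. The 3 genes of membrane assembly thus gave 1 value under, 1 above and 1 between the controls.

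Pex11a, which elongates and divides peroxisomes and is a known PPARalpha target, read 286, 384 and 485, or 145% of the control mean of 335 ± 69.7 (SD, n = 2). Its other probe set read 159, 228 and 207, and did not exceed empty vector 2. Of the import peroxins, Pex7, the receptor for the second targeting signal, read 366, 447 and 500.2, and Pex2, a ubiquitin ligase of the recycling step, read 761, 849 and 963. Both were highest with the shRNA. A dimmer Pex2 probe set read 163, 55.4 and 85.6. Pex5, the main import receptor, read 347, 316 and 276, or 83.2% of the control mean, and its other probe set read 218, 196 and 215. The docking proteins Pex13 (1143, 964 and 1067) and Pex14 (270.2, 403 and 383) lay between the controls. So did Pex6, an ATPase that extracts Pex5 (558, 838 and 745), and its membrane anchor Pex26 (179, 244 and 223). The 5 probe sets of Pex6 put the shRNA above both controls on 2, below both on 1 and between on 2.

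Among the receptors, Ppard was the one measured above the filter. It read 161, 304 and 284, following the split between empty vector 1 and the rest. Ppara, the receptor that drives oxidation genes in liver, read 19.7, 23.2 and 7.4, and Pparg, the adipocyte receptor, read 5.6, 4.4 and 3.5, both under the filter level on every array. Plin2, a lipid droplet coat protein, read 2203, 1258 and 1097, so the shRNA was lowest but close to empty vector 2 (87.1% as a ratio). Pdk4, the kinase that shuts pyruvate dehydrogenase when fat is burned, read 302, 542 and 472, between the controls. Of the receptors, the one most often tied to oxidation genes was thus dim.

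**Figure D3:**
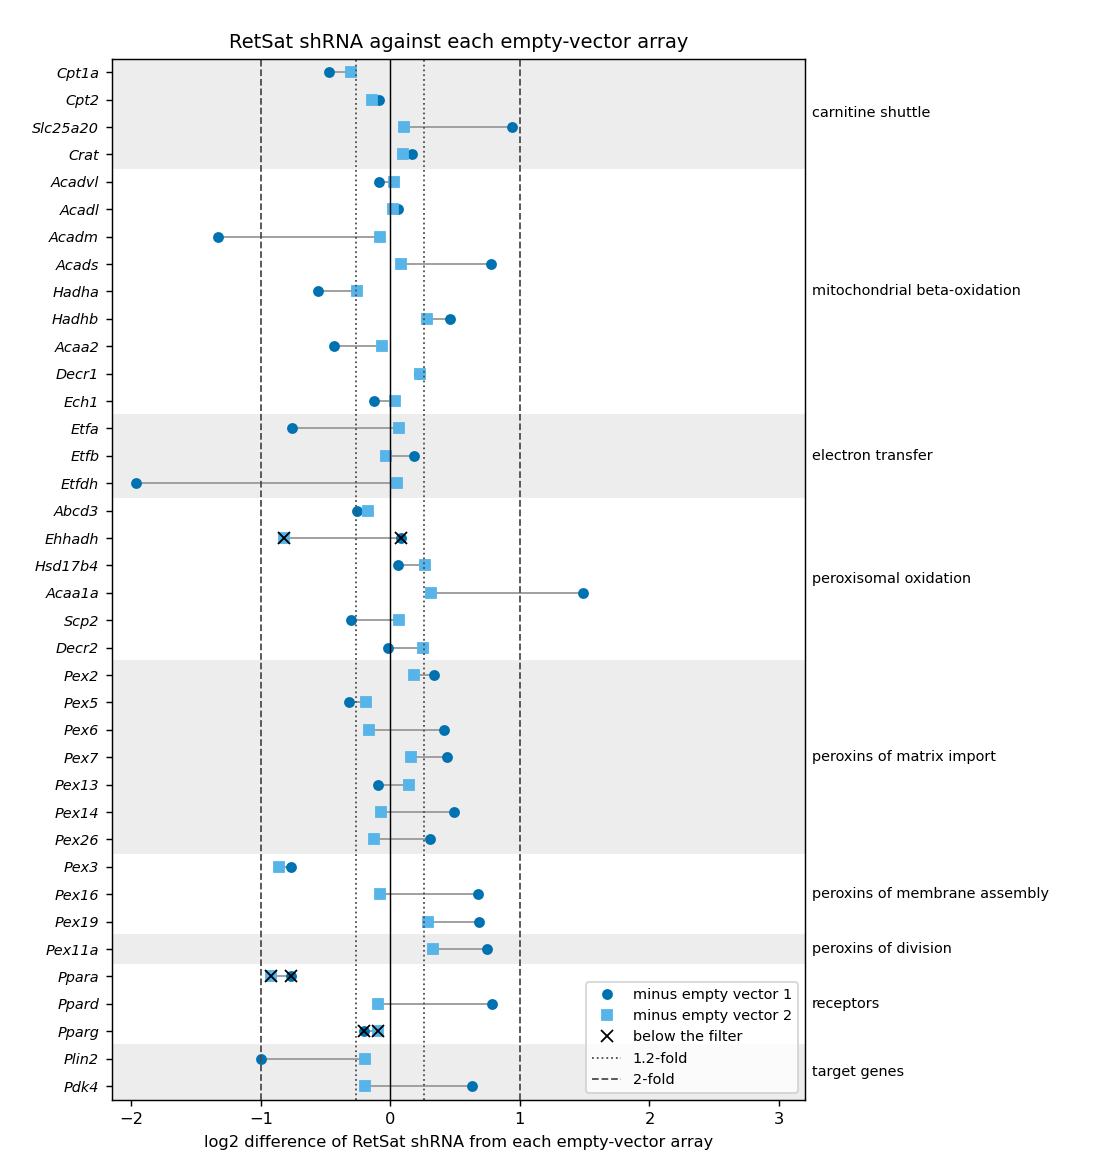
Each row is a gene, with the log2 difference of RetSat shRNA from empty vector 1 (circles) and empty vector 2 (squares), and dotted and dashed lines at 1.2-fold and 2-fold. Squares crowd near 0 and circles scatter, from -1.96 for Etfdh to 1.48 for Acaa1a. Pex3 has the lowest square among genes past the filter, at -0.86.

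RetSat shRNA lay nearer to empty vector 2 than to empty vector 1 across the members, as it did across all genes. It was closer to empty vector 2 than to empty vector 1 for 29 of the 35 members (82.9%) and 77.3% of all genes. It lay within 1.2-fold of empty vector 2 for 28 members (80.0%, against 70.4% of all genes) and within 1.2-fold of empty vector 1 for 11 (31.4%, against 30.9%). Empty vector 1 stood at least 2-fold above both other arrays for Acadm and Etfdh, against 7.92% of all genes, and at least 2-fold below both for Acaa1a, against 1.86%. The controls were at least 2-fold apart for these 3 members and for 12.7% of all genes. For these 3 members the size of the difference of RetSat shRNA therefore differed by control array. The dividing-cell markers moved with this split in part. Of 5 markers, 2 were at least 2-fold higher on empty vector 1, Mki67 (3234, 125 and 122) and Top2a (5904, 655 and 624), while Cdk1, Pcna and Mcm2 were not, and the list's summed signal was 24572, 16991 and 16861. Their part in the members' values was not tested.

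Probe sets of the same gene gave a second view of the error. Among the 17 members with more than 1 probe set past the filter, 10 had probe sets with opposite signs between empty vector 1 and empty vector 2, or 58.8%, against 42.6% of the 5131 such genes. Between RetSat shRNA and empty vector 2 it was also 10 of 17, against 57.4%. The range among probe sets of a member had a median of 0.64 on the log2 scale between the controls and 0.37 between RetSat shRNA and empty vector 2. For all 5131 such genes the medians were 0.61 and 0.36. Scp2 gave the widest example. Its 4 probe sets read 2116, 1638 and 1711, then 1206, 1500.2 and 1462, then 126, 334 and 358, and then 72.1, 22.9 and 35.7. Slc25a20 read 222, 402 and 435 on one and 149, 103 and 112 on the other, opposite between the controls but 1.08 times empty vector 2 on both. All probe sets past the filter lay above both controls for Acaa1a and Decr1, and below both for Cpt2 and Pex3. The same holds for Crat, above both, but 1 of its probe sets passed the filter only through the shRNA array. With Crat, these were 17.6% of the 17 members above both and 11.8% below both. Of the 5131 such genes, 10.4% lay wholly above both controls and 9.18% wholly below both.

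**Figure D4:**
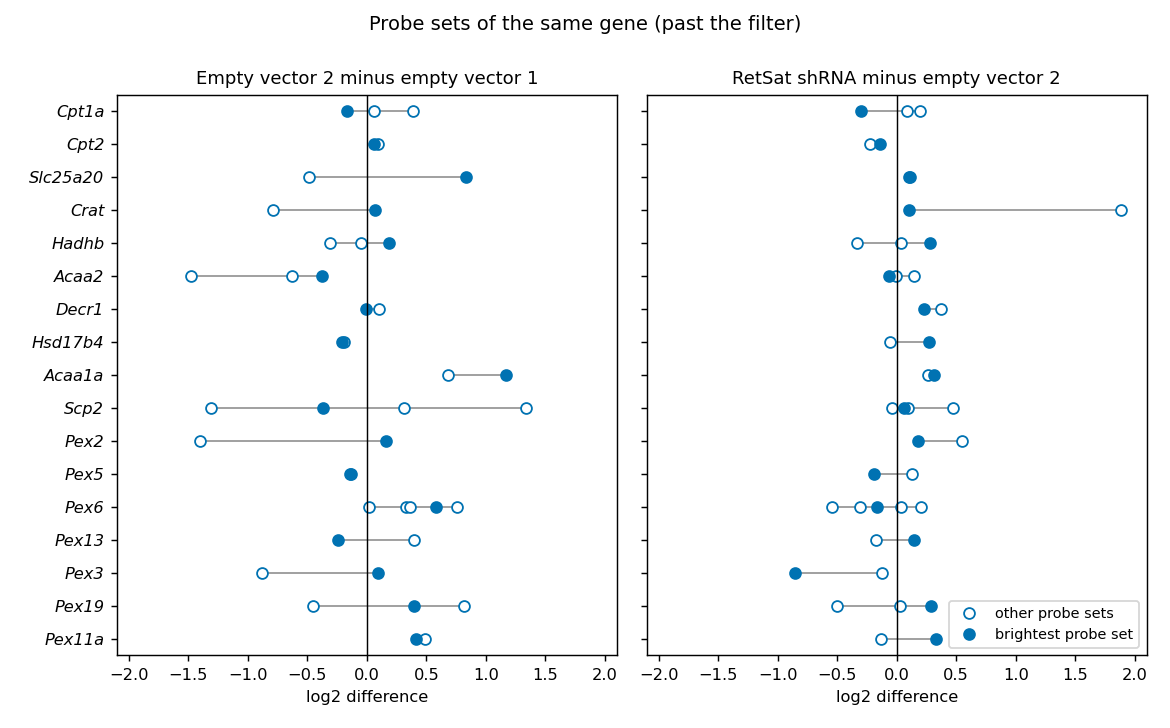
Points are probe sets past the filter of the 17 members with more than 1, filled for the brightest, at their log2 difference between the controls (left) and between RetSat shRNA and empty vector 2 (right). Probe sets of Scp2 run from -1.31 to 1.34 between the controls, and those of Decr1 and Acaa1a lie together to the right of 0 in the right panel.

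Of the other genes of these pathways, 0 passed limma. Their counts above and below both controls by any amount stand beside 34.4% and 25.4% of all genes, and those at 1.2-fold beside 7.7% and 8.12%. Of 25 further mitochondrial oxidation genes past the filter, 7 lay above both controls and 8 below both by any amount, with median log2 differences of -0.27 and 0.05 from the first and the second control array. Mlycd, which breaks down the Cpt1a inhibitor malonyl-CoA, read 30.3, 58.9 and 75.9, and Mcee, an epimerase of propionate breakdown, read 231, 230.1 and 183. These 2 were the ones at least 1.2-fold from both controls. Of 28 further peroxisome genes, 9 lay above both and 6 below both, with medians of 0.12 and 0.01. Pex10, a ubiquitin ligase that works with Pex2, read 113, 119 and 202, Pecr, a trans-enoyl-CoA reductase, read 231, 256 and 346, and Hacl1, the lyase of alpha-oxidation, read 234, 176 and 138. Catalase (Cat), which removes the peroxide made by peroxisomal oxidation, read 1094, 2116 and 1826.

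Of 26 further genes of the PPAR pathway past the filter, 7 lay above both controls and 9 below both by any amount (34.4% and 25.4% of all genes), with medians of 0.15 and -0.08. Pdk1, a kinase related to Pdk4, read 726, 872 and 1067. Plin4, a droplet protein, read 68.6, 68.9 and 40.5. Ucp3, a mitochondrial carrier, read 54.5, 42.6 and 15.2, at least 2-fold under both controls but near the filter level.

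Markers of the labelled cell type were present. All 11 fibroblast markers passed the filter, with summed signals of 87321, 88376 and 89316. Of 6 adipocyte markers measured, 2 passed (Fabp4 and Retn), with summed signals of 707, 369 and 512. Retn read 182.8, 9.5 and 33.8, so its mean passed through its high value on empty vector 1. Adipoq, which defines adipocytes, read 1.7, 3.8 and 24.8, under the filter level on every array, as did Cidec, Cebpa and Lep. Of the other markers, 2 of 5 epithelial, 2 of 5 leukocyte, 0 of 4 endothelial, 0 of 5 hepatocyte and 1 of 4 skeletal muscle genes passed, with summed signals from 51.6 to 772. The epithelial ones were Epcam (53.8, 122 and 107) and Krt8 (102, 16.2 and 78.1). The leukocyte ones were Cd68 (142, 133 and 120) and Cd14 (569, 480 and 615), and the muscle one was Acta1 (29.0, 81.2 and 46.4). Kdr, an endothelial gene whose mean did not pass, read 37.3, 8.6 and 69.8. Ptprc, Pecam1 and Alb read at most 15.2 on any array.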

How the data were processed

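Gene expression was measured in NIH3T3 cells on 3 single-colour arrays of 45101 probe sets, with biotin-labelled RNA per the labels. The deposited intensities are linear signals from 0.1 to 30189.8, and their 2% trimmed mean was 250.0 on each array, so they had been scaled before deposit. The software and the summarisation step were not given in the sources used here, and no detection calls were used. The number of arrays limits the precision.

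Symbols came from the platform annotation, checked by gene ID against RefSeq GRCm38.p6 (0 changed). Of the probe sets, 34945 had 1 symbol, 932 several and 9160 none, and 64 were controls. Genes were taken by their brightest probe set (mean log2), after adding 10.2, the 25th percentile of all values, and tested when that mean reached the 50th percentile of all probe sets (a signal of 33.3). RetSat shRNA was compared with the empty vector in limma 3.58.1 (R 4.3.3), lmFit and eBayes over all genes, two-sided, and called at a Benjamini-Hochberg adjusted p under 0.05. The lone shRNA array is assumed to vary like the controls. A rule of size was read beside it, at least 1.2-fold or 2-fold from each control in the same direction.

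All 38 genes are named. Of other pathway genes, up to 4 per list and direction beyond 1.2-fold were named, ranked by the smaller difference. Catalase, which lay between the controls, was named outside this rule. Genes and lists were chosen with earlier results of these data known. Alternatives were the offset, filter, scaling, probe set rule, variance prior and leaving out each control.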

Additional observations from a re-analysis of the deposited data

How the results depend on the processing

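No paired analysis was possible because the groups share only the number 2. Calls by limma over all genes were 0 in the fit reported, 7 with a robust variance prior and 1 after centring each array on its median, and 0 among the members in each fit run. Members at least 2-fold from the controls were 0 either way, and leaving out a control in turn gave 0 to 1 higher and 0 to 2 lower. At 1.2-fold the counts ran from 5 to 14 higher and 2 to 10 lower on leaving out a control. The larger counts came without empty vector 2, where 41.1% of all genes were higher and 28.0% lower. Without empty vector 1 these shares were 14.1% and 15.5%. With probe sets averaged, 2 members were higher, against 7.67% of all genes. Members beyond the remaining control numbered 19 higher and 16 lower, whichever control was left out, since 1 array then decides. Averaging probe sets turned the log2 difference of Hadhb to -0.0347 and that of Cpt1a to 0.0394, and no other member beyond 1.2-fold changed sign under the offset, filter, scaling or probe set alternatives. The count at least 2-fold below on empty vector 1 became 0 with an offset of 50, with the filter at the 75th percentile or with probe sets averaged, and 2 with quantile normalization. The members' median from the control mean was 0.157 with quantile normalization, and 0.029 and 0.0625 without empty vector 1 and 2, and that from empty vector 1 was 0.109 with centred arrays. The cause of these shifts was not tested. Signals under the filter level have no detection call, so Ehhadh, Ppara and Pparg have no usable fold.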
